A study of Mus musculus with 8 samples.

Results

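Solute carriers (SLC) are the membrane proteins that move ions, metals, sugars, amino acids, nucleosides, vitamins and mitochondrial metabolites across the plasma membrane and the membranes of organelles. Genes of this superfamily that are expressed in cultured mouse microglia were examined here for their levels and for their response to immunoglobulin G (IgG). Protein-coding genes whose symbols consist of Slc, a family number, the letter a and a member number were taken from the deposited count table and selected on their level alone, a mean over the 8 libraries of at least 2 CPM (counts scaled by the library total). The levels are therefore given as a description, with no test. Slc13a3, Slc2a5, Slc25a1, Slc25a10 and Slc25a11 were left out by name. Of 342 protein-coding genes with such a symbol, 183 were kept, 154 were under the level threshold, of which 36 had 0 counts in all libraries, and 5 were left out by name. All 183 entered the fit across 17537 genes. The symbol pattern also takes 4 genes that encode no carrier, namely the scaffold proteins Slc9a3r1 and Slc9a3r2, Slc7a6os, which is named for its position opposite Slc7a6, and Slc4a1ap, so that 179 are carriers. The level threshold lay between Slc8a3 at a mean of 1.89 CPM, Slc25a29 at 1.78 and Slc44a5 at 1.75 below it, and Slc39a2 at 2.01, Slc2a13 at 2.04 and Slc39a4 at 2.14 above it. Slc39a2 and Slc2a13 passed it through the control libraries alone, with TMM-scaled means of 2.12 and 2.47 CPM in control and 1.86 and 1.61 CPM in IgG libraries, so a lower value with IgG is in part fixed by the selection for these 2.

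Microglia were prepared from the pooled neocortices and hippocampi of wild-type newborn mice, shaken off mixed cultures and replated. In the IgG group, 4 cultures received IgG at 10 µg/ml for 24 h from day in vitro (DIV) 15, and 4 control cultures of the same age are labelled untreated and were given the buffer alone by the study's methods. Polyadenylated RNA was sequenced in 1 library for each culture. The labels give each control library and the IgG library of equal number the same date, and such libraries were analysed as a pair. What the date marks, and whether the cultures of different dates came from separate preparations, is not given in the sources used here, so p-values measure the spread between these libraries. Brains were pooled before culture.

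Macrophages depend on carriers at several places. Amino acid exchangers of the SLC7 family act at the surface with the heavy chain encoded by Slc3a2, and metal carriers withdraw iron, manganese, copper or zinc from phagosomes and lysosomes or load them. Na+/H+ exchangers of the SLC9 family set the pH of endosomes, and peptide carriers of the SLC15 family export peptides and histidine from lysosomes. The SLC25 family occupies the inner mitochondrial membrane and exchanges nucleotides, phosphate and amino acids with the cytosol. IgG is bound by Fc receptors of microglia and taken up, and the comparison asks how the transcripts of these carriers stand a day later.

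Library totals ranged from 21287816 to 23703216 counts, at which 3 counts correspond to 0.127 to 0.141 CPM, below the level threshold of 2 CPM. All 10 microglial markers were present, with summed levels of 7863 to 8626 CPM in control and 8468 to 9447 CPM in IgG libraries. The single markers did not move together. Tmem119, Cx3cr1, Aif1 and Csf1r were higher in all 4 pairs (40%, beside 10.4% of all genes) and 0 were lower in all 4 (8.47% of all genes). Aif1 had an adjusted p of 0.0331 by edgeR. Trem2 and Tyrobp were lower in 3 pairs, and C1qa was higher in 2 and lower in 2. Summed markers of astrocytes were at 138.3 to 170.7 CPM, of neurons at 41.0 to 73.6, of fibroblasts at 3.51 to 7.001 and of endothelial cells at 5.55 to 14.4 CPM over the 8 libraries, with the endothelial carrier Slco1a4 at 0 in some libraries. Markers of the oligodendrocyte lineage summed to 1326 to 1991 CPM in control and 1165 to 1882 CPM in IgG libraries. Those of border-associated macrophages, most of it from Stab1, with Cd163 and Lyve1 at 0 in some libraries, summed to 884.3, 783.9, 877.2 and 779.0 CPM in control and 1104, 902.4, 1152 and 815.4 CPM in IgG libraries of pairs 1 to 4. IgG libraries 1 and 3 had 4.85% and 5.59% of their counts in mitochondrial genes, whereas the other 6 libraries had 1.97% to 2.41%. In bulk RNA, fewer cells of a type and less RNA per cell cannot be told apart. For many of the genes named, the log2 fold change without pairs 1 and 3 is therefore given as well.

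The level of each gene was compared between genes as TMM-scaled CPM per kilobase of exon (RPKM). The median gene of the 183 was at 5.10 RPKM, with a range from 0.244 to 187, and 29 genes had a mean of at least 100 CPM and 8 of at least 200. The highest was Slc25a5, a mitochondrial ADP/ATP exchanger, at 187 RPKM. Next were Slc15a3, a lysosomal peptide and histidine carrier, at 117.8 RPKM, and Slc6a6, the taurine carrier, at 93.8. Slc11a1, which removes iron and manganese from phagosomes and is a textbook macrophage gene, reached 87.2 RPKM, and Slc39a1, a zinc importer, 78.4. Slc3a2 stood at 74.3 RPKM, the mitochondrial phosphate carrier Slc25a3 at 62.7 and the second ADP/ATP exchanger Slc25a4 at 61.5. The copper carrier Slc31a2 at 56.4 RPKM, the zinc carrier of the secretory pathway Slc39a7 at 55.9 and the haem carrier Slc48a1 at 54.5 followed. Of the 10 highest, 4 were metal carriers, a class that holds 29 of the 183 genes. Libraries of one group overlapped between many neighbours in this order: Slc31a2 had 85.1 to 107.2 CPM and Slc48a1 130.6 to 165.9 CPM in control libraries on exons of unequal length, and their RPKM values overlapped. By median RPKM, the mitochondrial carriers were at 5.13, metal ion and haem carriers at 6.88, amino acid carriers at 4.90, carriers of sugars and polyols at 4.26 and carriers of inorganic ions at 3.92.

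**Figure D1:**
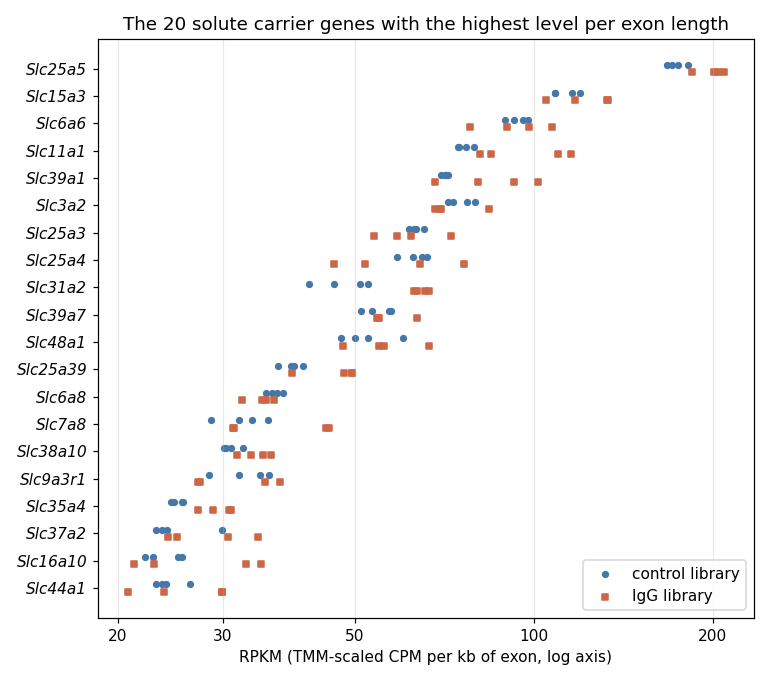
Level of the 20 Slc genes with the highest mean RPKM (log axis, TMM-scaled CPM per kilobase of exon) in each of the 4 control libraries (circles) and 4 IgG libraries (squares). Slc25a5 at a mean of 187 RPKM stands highest, and the control and IgG libraries of Slc31a2 do not overlap.

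As a whole the 183 genes took a near constant share of the transcriptome, between 1.02% and 1.08% of the counts in each of the 8 libraries. Few of them differed between the groups. With the date as a block in edgeR's quasi-likelihood test, 0 of 183 had a Benjamini-Hochberg adjusted p under 0.05 over all genes, against 69 higher (0.393%) and 0 lower (0%) of 17537 genes tested. At the same threshold the likelihood ratio test of edgeR called 3 of them (Slc7a7, Slc31a2 and Slc9a9) and 1.86% of all genes, DESeq2 1 (Slc7a7) and 1.32%, and limma-voom 0 and 0.502%. At an unadjusted p under 0.05, 13 of the 183 were higher (7.1%; 6.35% of all genes) and 6 were lower (3.28%; 3.85% of all genes), shares close to the background. The study's criterion, an unadjusted p under 0.01 with an absolute log2 fold change above 0.5, was met by 2 genes that were higher, Slc7a7 and Slc9a9 (1.09%; 1.48% of all genes), and by 0 that were lower (0.342% of all genes). Without the block, 0 had an adjusted p under 0.05 (0% of all genes), the criterion was met by Slc7a7 alone (0.582% of all genes higher and 0.262% lower), and 13 were higher and 1 lower at an unadjusted p under 0.05 (4.83% and 2.18% of all genes).

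The differences were small. Their median log2 fold change was 0.01, beside -0.01 over all genes tested. An absolute log2 fold change above 0.5 was seen for 6 of 183 (3.28%), beside 8.19% of all genes tested and 4.52% of those with a mean of at least 2 CPM, and none of the 183 exceeded 1. The median standard error of the log2 fold change was 0.118, so changes of 0.2 are within 2 standard errors for the median gene. A total of 19 genes were higher in all 4 pairs (10.4%; 10.4% of all genes) and 16 were lower in all 4 pairs (8.74%; 8.47% of all genes). The control and IgG libraries did not overlap for 7 genes that were higher with IgG (3.83%; 2.6% of all genes) and 2 that were lower (1.09%; 1.57% of all genes). The 7 were Slc25a5, Slc11a1, Slc31a2, Slc35a4, Slc11a2, Slc12a9 and Slc2a8, and the 2 were Slc7a2 and Slc12a2.

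The pairs differed from each other. The median change of the 183 genes was 0.07 in pair 1, -0.01 in pair 2, 0.06 in pair 3 and -0.04 in pair 4. In these pairs 113, 85, 102 and 83 of them were higher with IgG (61.7%, 46.4%, 55.7% and 45.4%), beside 51.3%, 50.4%, 51.5% and 50.1% of all genes. The standard deviation of the change over the 183 genes was 0.37, 0.22, 0.34 and 0.29. Within pairs 1, 3 and 4 the change went with base composition, in the opposite direction in pair 4. Spearman's rho between the change and the GC content of the longest transcript of each gene was -0.33, 0.07, -0.25 and 0.52 in pairs 1 to 4 for the 183 genes. For all genes it was -0.38, -0.03, -0.39 and 0.31. These coefficients are across genes of the same library pair, which are not independent, and are given as a description. Pairs 1 and 3 are those whose IgG libraries had the high mitochondrial share, and the part of that share in the changes was not tested. With GC content and exon length removed from each library, Slc31a2 had an adjusted p of 0.0250 by edgeR (1.11% of all genes were under 0.05) and Slc7a7 alone met the criterion.

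**Figure D2:**
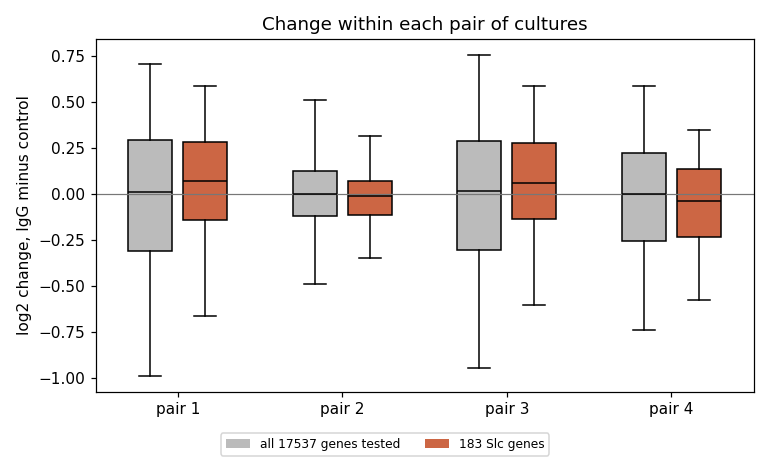
Change within each pair of cultures (log2, IgG minus control) for the 17537 genes tested and the 183 Slc genes. Boxes span the quartiles with the median as a line, and whiskers the 5th to the 95th percentile. Medians of the Slc genes lie between -0.04 and 0.07, and pair 2 is the narrowest.

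**Figure D3:**
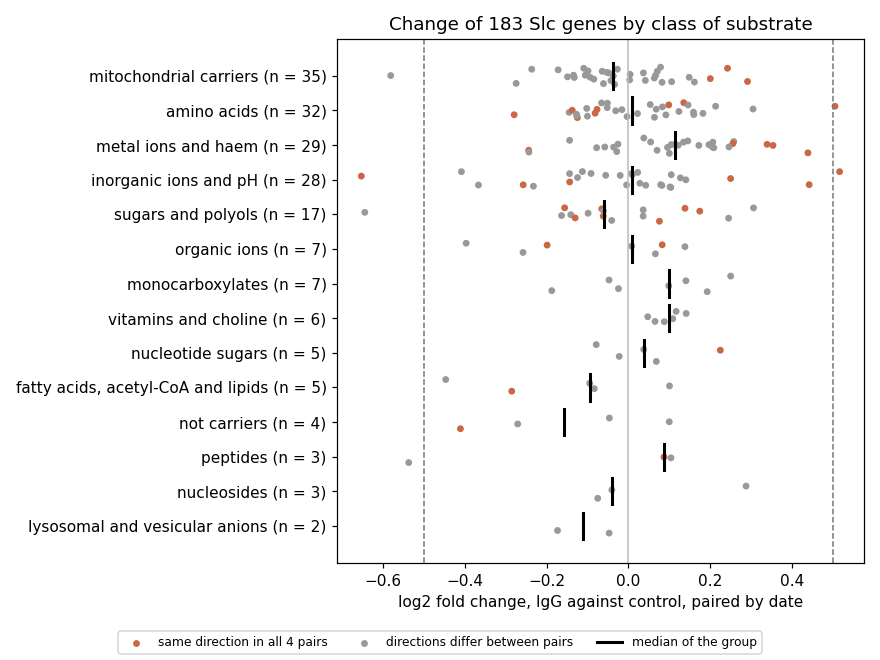
Log2 fold change of the 183 Slc genes with IgG, each a point, by class of substrate. Dark bars are class medians, red points moved the same way in all 4 pairs, and dashed lines mark the absolute value of 0.5. Medians lie between -0.16 and 0.11, and 6 genes lie outside the dashed lines.

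The 5 genes with the largest increase among those higher in all 4 pairs were Slc9a9, Slc7a7, Slc12a7, Slc31a2 and Slc46a1. Their promoters are shown because these genes moved in the same direction in every pair. Each window holds the 250 bases before a RefSeq transcription start and the 50 from it on (GRCm38.p6), 5′ to 3′ on the strand of the gene, where 137 of the 183 genes had a window. Capitals mark matches, on either strand, to 5 short motifs: GAAA, any 2 bases and GAAA again, the core of the interferon-stimulated response element; TTCNNNGAA, the gamma-activated sequence; CACGTG, an E-box of lysosomal genes; TGATGNAA, the core of the amino acid response element; and TGANTCA, the AP-1 site. The motifs share no match in these windows.

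Slc9a9 (chr9:94669642-94669941, plus strand): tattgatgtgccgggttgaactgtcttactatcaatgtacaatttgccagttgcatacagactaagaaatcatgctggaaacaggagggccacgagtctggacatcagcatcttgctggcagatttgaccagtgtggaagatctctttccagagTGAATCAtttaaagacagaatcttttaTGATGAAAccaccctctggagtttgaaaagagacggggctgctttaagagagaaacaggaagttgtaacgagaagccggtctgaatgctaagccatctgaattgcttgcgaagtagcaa
Slc7a7 (chr14:54417653-54417952, minus strand): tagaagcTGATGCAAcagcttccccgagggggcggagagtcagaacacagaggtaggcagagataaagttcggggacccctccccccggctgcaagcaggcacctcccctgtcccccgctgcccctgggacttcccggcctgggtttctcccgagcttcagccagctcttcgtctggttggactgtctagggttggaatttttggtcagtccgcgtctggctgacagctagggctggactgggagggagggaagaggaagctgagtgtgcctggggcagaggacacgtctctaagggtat
Slc12a7 (chr13:73763410-73763709, plus strand): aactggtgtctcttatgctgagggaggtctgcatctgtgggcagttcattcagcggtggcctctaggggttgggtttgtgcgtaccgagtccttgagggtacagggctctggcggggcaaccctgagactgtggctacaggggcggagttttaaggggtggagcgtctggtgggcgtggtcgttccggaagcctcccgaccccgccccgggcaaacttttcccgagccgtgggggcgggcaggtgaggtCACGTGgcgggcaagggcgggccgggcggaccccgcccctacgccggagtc
Slc31a2 (chr4:62286179-62286478, plus strand): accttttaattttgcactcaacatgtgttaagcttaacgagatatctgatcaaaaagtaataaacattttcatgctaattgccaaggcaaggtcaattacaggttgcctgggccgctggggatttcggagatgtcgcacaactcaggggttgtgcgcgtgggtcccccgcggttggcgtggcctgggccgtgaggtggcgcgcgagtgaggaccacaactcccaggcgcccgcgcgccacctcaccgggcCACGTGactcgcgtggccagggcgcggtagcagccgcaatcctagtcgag
Slc46a1 (chr11:78465451-78465750, plus strand): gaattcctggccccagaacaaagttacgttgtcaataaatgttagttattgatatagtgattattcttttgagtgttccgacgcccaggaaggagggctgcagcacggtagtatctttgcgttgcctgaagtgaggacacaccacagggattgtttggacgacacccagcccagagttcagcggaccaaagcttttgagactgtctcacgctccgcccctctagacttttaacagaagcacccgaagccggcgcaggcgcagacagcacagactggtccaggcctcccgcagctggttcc

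The Slc9a9 window held TGATGAAA at -69 and TGAATCA at -96, counted from the start base, which is 0, to the first base of the match. Slc7a7 and Slc12a7 had 5 and 2 windows, of which only the one nearest to the annotated start is shown. That of Slc7a7 held TGATGCAA at -243. CACGTG lay at 0 in Slc31a2 and at -1 in Slc12a7, and Slc46a1 held none of the 5 motifs. The RefSeq starts used for Slc9a9, Slc7a7 and Slc46a1 lie 17, 78 and 4 bases from the first base of the gene in the annotation, while those of Slc12a7 and Slc31a2 lie 30566 and 23867 bases inside the gene. Of 32851 mouse windows of the same length, 7.15% held CACGTG, 3.97% TGATGNAA, 7.81% TGANTCA, 8.30% TTCNNNGAA and 3.44% the interferon-stimulated core. Among the 185 windows of the Slc genes the shares were 13.5%, 3.78%, 7.57%, 3.78% and 2.16%. A match is only a string of letters, and no binding was measured.

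Amino acid carriers numbered 32, with a median log2 fold change of 0.01. Of these, 3 were higher (9.38%) and 5 lower (15.6%) in all 4 pairs, beside 10.4% and 8.47% of all genes, and 2 were higher (6.25%) and 1 lower (3.13%) at an unadjusted p under 0.05, beside 6.35% and 3.85% of all genes. Slc7a7 (ENSMUSG00000000958, chr14:54369442-54417780, minus strand, GRCm38) encodes y+LAT1, the light chain that exports cationic amino acids such as arginine in exchange for neutral ones. It had 61.6, 50.8, 63.2 and 51.1 CPM in the control libraries and 97.6, 67.4, 99.0 and 62.7 CPM in the IgG libraries of pairs 1 to 4. Each IgG library exceeded its own control, and IgG library 4 was the only one below the highest control. The mean was 56.7 ± 6.67 CPM in control and 81.7 ± 19.3 CPM with IgG (SD, n = 4), a log2 fold change of 0.50 ± 0.10 (SE) with an adjusted p of 0.107 by edgeR's quasi-likelihood test. Leaving out pairs 1 and 3 gave 0.35. Exons of Slc7a7 overlap those of Oxa1l on the opposite strand, which was at 63.8 and 76.0 CPM with a log2 fold change of 0.25 ± 0.08, and since the strand setting of the counting is not given in the sources used here, reads of the overlap cannot be assigned.

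The partner chain of Slc7a7, Slc3a2, stood at 266.3 ± 12.9 CPM in control and 257.8 ± 26.6 CPM with IgG (log2 fold change -0.05 ± 0.10, higher in 1 of 4 pairs), and its value was 0.081 without pairs 1 and 3. The other light chains varied between pairs. Slc7a8, a carrier of neutral amino acids, had a log2 fold change of 0.21 ± 0.10 with within-pair changes of 0.43, 0.12, 0.32 and -0.03, and 0.048 without pairs 1 and 3. Slc7a5, the leucine carrier LAT1, had 0.16 ± 0.11 (-0.047 without these pairs), and Slc7a11, the cystine carrier, -0.05 ± 0.16 (-0.32 without these pairs and 0.12 without pair 4).

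Slc7a2, which imports arginine and other cationic amino acids, was lower in all 4 pairs. Its control libraries had 146.6, 139.8, 141.7 and 147.5 CPM and its IgG libraries 137.4, 116.5, 133.5 and 92.2 CPM, so that all IgG values lay below all control values. The log2 fold change was -0.28 ± 0.12 (adjusted p = 0.479, edgeR), and it was -0.47 without pairs 1 and 3 and -0.16 without pair 4. Slc7a1, another importer of cationic amino acids, had 0.12 ± 0.16, with within-pair changes of 0.45, -0.01, 0.49 and -0.44. Its value turned to -0.23 without pairs 1 and 3.

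Classes follow the family number, so that the taurine and creatine carriers of the SLC6 family are counted here. The taurine carrier Slc6a6 was at 795.5 ± 30.7 CPM in control and 791.6 ± 105.3 CPM with IgG. Its log2 fold change was -0.02 ± 0.11, or -0.17 without pairs 1 and 3. The creatine carrier Slc6a8 was lower in all 4 pairs by a small amount (-0.08 ± 0.08). Of the SLC38 family, 6 of 7 members had a positive log2 fold change, beside 8609 of 17537 of all genes. The family median was 0.10, with medians of 0.21, 0.03, 0.27 and 0.04 in the 4 pairs. Slc38a10 and Slc38a7 were higher in all 4 pairs at 0.14 ± 0.08 and 0.10 ± 0.09, or 0.089 and 0.041 without pairs 1 and 3. Slc38a9, a lysosomal arginine sensor, had 0.16 ± 0.10 (0.023 without pairs 1 and 3), and Slc36a1, a lysosomal exporter of small amino acids, -0.08 ± 0.08. Slc38a1 and Slc38a2, which import glutamine and other neutral amino acids, had within-pair changes of 0.41, -0.11, 0.36 and -0.40 and of 0.32, 0.05, 0.51 and -0.30. In both, pairs 1 and 3 were positive and pair 4 was negative. Slc6a20b, whose exons overlap Sacm1l, met an unadjusted p under 0.05 at 0.30 ± 0.13, with pair 4 at -0.04, and stood at 0.019 without pairs 1 and 3. The glutamate carriers Slc1a3 and Slc1a2 are treated with the differences between dates.

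Metal ion and haem carriers were the class with the highest median log2 fold change, 0.11 over 29 genes. Of the 29, 21 had a positive value, beside 8609 of 17537 of all genes. In this class 4 were higher in all 4 pairs (Slc11a1, Slc31a2, Slc11a2 and Slc46a1) and 1 was lower (Slc40a1), and the same 5 were those with an unadjusted p under 0.05. The share higher was 13.8% on both counts, beside 10.4% of all genes in all 4 pairs and 6.35% at that p, and the share lower 3.45%, beside 8.47% and 3.85%. The class medians were 0.25, -0.02, 0.27 and 0.01 in pairs 1 to 4, so the shift was found in pairs 1 and 3. The summed markers of border-associated macrophages were also highest in IgG libraries 1 and 3, and their part in the result was not tested. In the SLC39 family of zinc importers, 10 of 12 had a positive log2 fold change, beside 8609 of 17537 of all genes. Medians were 0.38, -0.01, 0.39 and 0.14 in the 4 pairs, and no member was higher in all 4.

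Slc31a2 (ENSMUSG00000066152, chr4:62262562-62298411, plus strand) encodes CTR2, a copper carrier of endosomes and lysosomes. Its levels were 104.0, 93.8, 107.2 and 85.1 CPM in control and 128.1, 133.7, 129.4 and 135.6 CPM in IgG libraries. The 4 IgG libraries were close to each other and above all controls. The mean went from 97.5 ± 10.1 to 131.7 ± 3.55 CPM, a log2 fold change of 0.44 ± 0.10 with an adjusted p of 0.170 by edgeR. No annotated exon of another gene overlaps its exons. Unlike the class as a whole, its change was 0.34 without pair 4 and was larger without pairs 1 and 3, at 0.59. That fit held pairs 2 and 4 alone and was added after seeing the data. It gave Slc31a2 an adjusted p of 0.00574 by edgeR (1.07% of all genes were under 0.05 in that fit). The standard error there was 0.142 for Slc31a2, Slc39a7 and Slc25a39 alike. That p-value thus rests mainly on a spread shared across genes and does not measure the spread of Slc31a2 between libraries. Over the alternatives the adjusted p of Slc31a2 by the tests named ranged from 0.00574 to 0.499. Slc31a1, the high-affinity copper importer at the plasma membrane, was at 82.5 and 96.0 CPM, with 0.21 ± 0.10 and within-pair changes of 0.36, -0.01, 0.42 and 0.05, and 0.021 without pairs 1 and 3.

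Both natural resistance-associated macrophage protein genes had a higher value with IgG in all 4 pairs and neither had an adjusted p under 0.05. Slc11a1 (Nramp1) had 294.4, 277.3, 285.7 and 276.7 CPM in control and 406.6, 301.4, 429.1 and 313.7 CPM in IgG libraries. No IgG library fell among the controls, and IgG libraries 1 and 3 stood above the other two. The log2 fold change was 0.34 ± 0.11 (adjusted p = 0.368, edgeR), or 0.15 without pairs 1 and 3. Slc11a2 (DMT1), which carries iron out of endosomes, had 136.8, 126.7, 133.8 and 131.9 CPM in control and 166.1, 159.6, 159.1 and 147.2 CPM in IgG libraries. The groups did not overlap and the 4 pairs were alike, with a log2 fold change of 0.26 ± 0.08 and 0.25 without pairs 1 and 3.

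Slc40a1, ferroportin, the cellular iron exporter, was the only metal carrier lower in all 4 pairs. It had 51.8, 42.3, 46.6 and 48.4 CPM in control and 50.03, 35.6, 39.5 and 35.8 CPM in IgG libraries, so IgG library 1 lay among the controls. The log2 fold change was -0.24 ± 0.10 (adjusted p = 0.467, edgeR) and -0.34 without pairs 1 and 3, and -0.20 without pair 4.

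Slc46a1, which carries folate and haem with protons, had 20.4, 19.6, 17.4 and 17.6 CPM in control and 27.9, 21.5, 28.6 and 18.9 CPM in IgG libraries. IgG libraries 1 and 3 stood apart from the others, and the log2 fold change of 0.35 ± 0.13 became 0.12 without those pairs. Slc48a1, which brings haem from the phagolysosome to the cytosol, was at 144.8 ± 15.2 and 155.1 ± 21.3 CPM (0.10 ± 0.09, or 0.0043 without those pairs). The zinc importer Slc39a1 was at 167.8 ± 2.01 CPM in control and 202.8 ± 34.2 CPM with IgG, where the IgG libraries had 218.9, 161.4, 240.2 and 190.6 CPM, and its log2 fold change of 0.26 ± 0.11 became 0.056 without pairs 1 and 3. Slc39a8 and Slc39a14, importers of zinc, manganese and iron, had 0.25 ± 0.12 and 0.21 ± 0.12, with pair 4 at -0.00 and -0.13, and 0.026 and -0.0051 without pairs 1 and 3. Slc39a11 had 0.20 ± 0.10, or 0.097 without them. The zinc exporter Slc30a1 stood at 61.0 and 60.4 CPM, and the SLC30 family had a median of 0.05 over 6 genes.

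**Figure D4:**
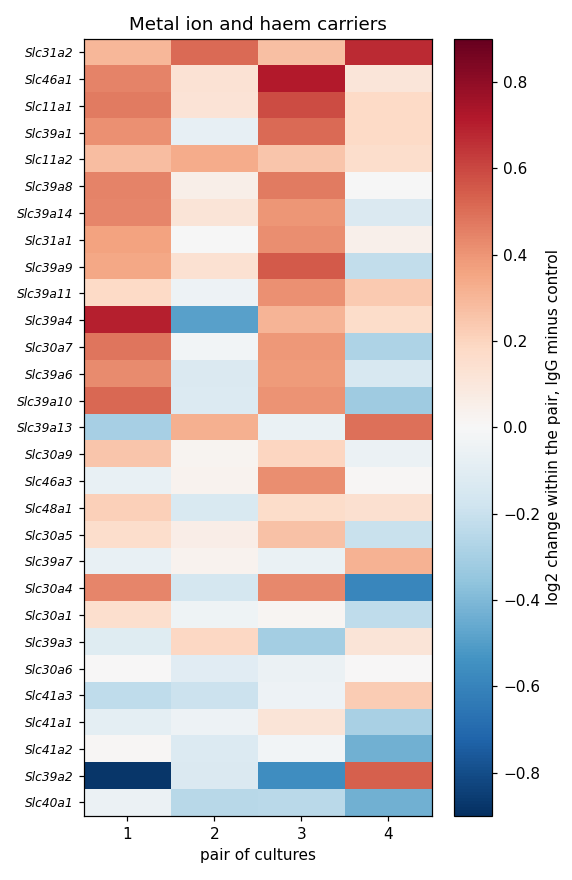
Within-pair change (log2, IgG minus control, colour scale) of the 29 metal ion and haem carriers, ordered by log2 fold change, in the 4 pairs of cultures. Slc31a2, Slc46a1, Slc11a1 and Slc11a2 are positive in all 4 pairs and Slc40a1 is negative in all 4, and medians of pairs 1 and 3 are 0.25 and 0.27.

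Carriers of inorganic ions and of pH numbered 28, with a median of 0.01, and 3 were higher and 3 lower in all 4 pairs (10.7% each, beside 10.4% and 8.47% of all genes). Slc9a9 (ENSMUSG00000031129, chr9:94669909-95230445, plus strand) encodes NHE9, a Na+/H+ exchanger of endosomes. It had 28.3, 24.1, 25.4 and 19.4 CPM in control and 47.4, 31.0, 45.4 and 20.9 CPM in IgG libraries. The increase was large in pairs 1 and 3 and small in pair 4, whose IgG library lay below 3 of the controls. The mean went from 24.3 ± 3.71 to 36.1 ± 12.5 CPM, and the log2 fold change of 0.52 ± 0.14 had an adjusted p of 0.272 by edgeR, where it was 0.24 without pairs 1 and 3. No other exchanger of the family that reached the threshold was higher in all 4 pairs.

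The cation-chloride cotransporters of the SLC12 family set cell volume and chloride, and of 5 members 2 were higher and 1 lower in all 4 pairs, beside 10.4% and 8.47% of all genes. Slc12a7 (KCC4, chr13:73733094-73816754, plus strand), which lets potassium and chloride out, had 29.6, 23.3, 27.8 and 26.5 CPM in control and 46.9, 29.0, 46.5 and 27.1 CPM in IgG libraries. Its log2 fold change was 0.44 ± 0.13 (adjusted p = 0.353, edgeR) and 0.17 without pairs 1 and 3. Slc12a9 was at 67.6, 62.3, 66.0 and 49.5 CPM in control and 70.8, 74.1, 75.6 and 69.5 CPM in IgG libraries, with 0.25 ± 0.10. Slc12a2 (NKCC1), which brings sodium, potassium and chloride in, had 107.2, 121.8, 117.4 and 130.6 CPM in control and 99.6, 102.2, 106.9 and 90.1 CPM in IgG libraries. All IgG values lay below all control values, and the log2 fold change of -0.26 ± 0.10 became -0.39 without pairs 1 and 3 and -0.18 without pair 4. Slc12a4, a potassium-chloride exporter, had -0.00 ± 0.08.

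Slc4a3, an anion exchanger of low level here, had the lowest log2 fold change of the 183 genes. It had 3.32, 4.78, 4.06 and 5.68 CPM in control and 1.53, 4.61, 2.258 and 3.46 CPM in IgG libraries. The values of the groups overlapped, since IgG library 2 nearly equalled its control, and the log2 fold change was -0.65 ± 0.21 (adjusted p = 0.367, edgeR), or -0.38 without pairs 1 and 3. The sodium-calcium exchanger Slc8a1 showed within-pair changes of 0.59, -0.07, 0.42 and -0.44, and the phosphate carrier Slc20a1 was at 42.8 and 42.9 CPM.

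**Figure D5:**
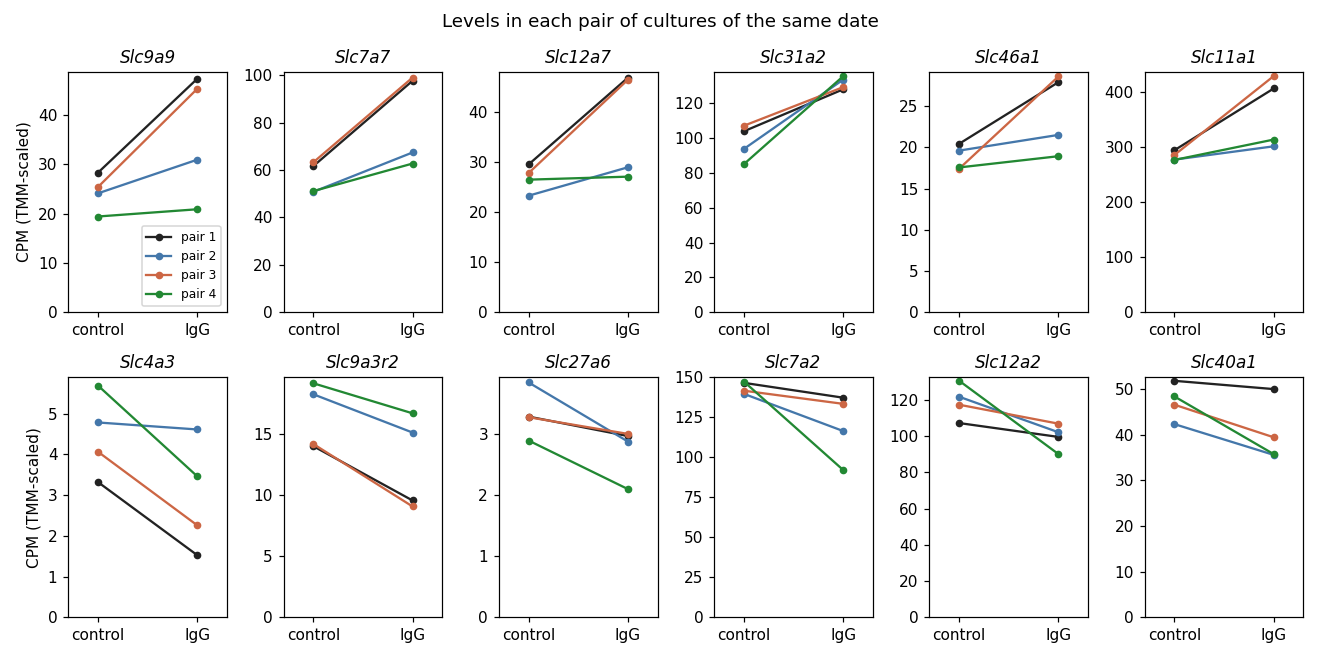
CPM (TMM-scaled, axis from 0) in the control and IgG library of each pair for 12 Slc genes, each line 1 of the 4 pairs. Upper row, the 5 with the largest increase among those higher in all 4 pairs, and Slc11a1. Lower row, the 5 with the largest decrease among those lower in all 4 pairs, and Slc40a1. Pairs 1 and 3 run together and steeply in Slc9a9, Slc7a7, Slc12a7, Slc46a1 and Slc11a1, and pair 4 is the steepest in Slc31a2, Slc7a2, Slc12a2 and Slc40a1.

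Carriers of sugars and polyols numbered 17, with a median of -0.06, 3 higher (17.6%) and 4 lower (23.5%) in all 4 pairs, beside 10.4% and 8.47% of all genes, and 0 with an unadjusted p under 0.05 in either direction, beside 6.35% higher and 3.85% lower of all genes. The main glucose carrier Slc2a1 was lower in all 4 pairs by little, at 87.7 ± 4.18 CPM in control and 83.8 ± 4.50 CPM with IgG (-0.07 ± 0.08). Slc2a8, an intracellular glucose carrier, had 18.0, 19.7, 19.6 and 19.1 CPM in control and 20.9, 21.9, 20.4 and 20.8 CPM in IgG libraries, where the groups did not overlap and the log2 fold change was only 0.14 ± 0.10. Slc37a2, a sugar phosphate exchanger of the endoplasmic reticulum, had 0.17 ± 0.09 (0.077 without pairs 1 and 3) and was higher in all 4 pairs. Slc2a6 and Slc2a3 had 0.04 ± 0.10 and 0.24 ± 0.16, or 0.15 and 0.075 without these pairs. Among the 7 monocarboxylate carriers, none moved the same way in all 4 pairs. Slc16a1 and Slc16a3, which carry lactate, had -0.05 ± 0.11 and -0.19 ± 0.11, or -0.16 and -0.023 without pairs 1 and 3. In Slc16a3 the pairs were at -0.29, -0.20, -0.41 and 0.15.

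The mitochondrial SLC25 family was the largest, with 35 members here, a median of -0.04 and 15 positive and 20 negative values. It took 0.153% to 0.179% of all counts in the 8 libraries. In this family 3 were higher in all 4 pairs and at an unadjusted p under 0.05 (8.57%, beside 10.4% and 6.35% of all genes), and 0 were lower in all 4 (8.47% of all genes). Slc25a5 had 276.2, 281.2, 299.3 and 287.5 CPM in control and 331.5, 303.7, 336.3 and 343.8 CPM in IgG libraries, without overlap. Its log2 fold change was 0.20 ± 0.09. Its paralogue Slc25a4, which has the same exchange activity, was at 148.7 and 140.6 CPM, with -0.11 ± 0.11 and 0.097 without pairs 1 and 3. Whether any reads match both genes was not examined. Slc25a39, which is needed for mitochondrial glutathione, had 109.0, 107.7, 112.9 and 102.6 CPM in control and 132.0, 108.2, 136.4 and 136.4 CPM in IgG libraries, where library 2 stood with the controls (0.24 ± 0.10). Slc25a12, an aspartate and glutamate exchanger, was at 40.7 ± 1.73 and 50.2 ± 7.65 CPM (0.29 ± 0.12). Its control libraries had 38.8, 41.1, 40.1 and 42.9 CPM and its IgG libraries 58.7, 42.9, 54.6 and 44.7 CPM, so that the difference lay in pairs 1 and 3 and was 0.060 without them. The mitochondrial iron importer Slc25a37 had -0.24 ± 0.12, with the pairs at -0.55, 0.02, -0.34 and -0.07 and a value of -0.025 without pairs 1 and 3, and the phosphate carrier Slc25a3 had -0.04 ± 0.10.

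The smaller classes held few genes that moved together. The peptide carriers Slc15a3 and Slc15a4, which act in lysosomes and are known for their part in signalling by endosomal Toll-like receptors, were at 622.1 ± 30.3 and 671.2 ± 75.02 CPM and at 75.8 and 80.6 CPM, with log2 fold changes of 0.10 ± 0.09 and 0.09 ± 0.09, or 0.032 and 0.0080 without pairs 1 and 3. The third peptide carrier of the class, Slc15a2, had 2.78, 3.83, 1.88 and 2.93 CPM in control and 0.971, 2.39, 1.08 and 4.28 CPM in IgG libraries, and its log2 fold change of -0.54 ± 0.32 (adjusted p = 0.582, edgeR) became -0.047 without pairs 1 and 3. Exons of Slc15a3 overlap those of Tmem132a on the opposite strand, which stood at 230.0 and 223.2 CPM. Slc29a3, a lysosomal nucleoside carrier, had 100.8, 90.9, 91.3 and 91.1 CPM in control and 156.6, 92.4, 152.1 and 76.4 CPM in IgG libraries, so its log2 fold change of 0.29 ± 0.17 came from pairs 1 and 3 and was -0.11 without them. Slc35a4 of the nucleotide sugar family had 81.3, 80.4, 84.0 and 84.3 CPM in control and 101.6, 89.1, 100.8 and 94.5 CPM in IgG libraries, without overlap, at 0.22 ± 0.09. All 6 genes classed by family number as carriers of vitamins and choline had a positive log2 fold change of 0.05 to 0.14. In none was every pair higher, and class medians were 0.31, -0.08, 0.30 and -0.10. Of 5 carriers of fatty acids, acetyl-CoA and lipids, 4 were negative, and the fatty acid carrier Slc27a6 had 3.28, 3.83, 3.27 and 2.89 CPM in control and 2.96, 2.87, 2.99 and 2.09 CPM in IgG libraries (-0.29 ± 0.17). The carnitine and organic cation carrier Slc22a4 had -0.40 ± 0.17, or -0.15 without pairs 1 and 3, and was higher with IgG in pair 2 only.

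Of the 4 genes that encode no carrier, the scaffold protein Slc9a3r2, which tethers membrane proteins to the cytoskeleton, was lower in all 4 pairs. It had 14.02, 18.3, 14.2 and 19.2 CPM in control and 9.57, 15.1, 9.08 and 16.7 CPM in IgG libraries. Libraries 2 and 4 were the higher ones in both groups, and the log2 fold change was -0.41 ± 0.12 (adjusted p = 0.344, edgeR), or -0.23 without pairs 1 and 3. The summed markers of the oligodendrocyte lineage were also higher in libraries 2 and 4 than in 1 and 3 of either group, at 1326, 1991, 1371 and 1796 CPM in control and 1165, 1882, 1185 and 1776 CPM in IgG libraries, and their part in the result was not tested. Slc9a3r1 stood at 63.0 and 61.4 CPM.

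Levels also differed between the dates. The range over the 4 dates of the mean of a pair had a median of 0.31 on the log2 scale over the 183 genes. It was above 1 in 1 gene, the peptide carrier Slc15a2, described above. The glutamate carrier Slc1a3, which is characteristic of astrocytes, had 16.4, 29.4, 22.6 and 32.4 CPM in control and 14.4, 25.8, 22.6 and 28.2 CPM in IgG libraries. By the mean of the pair it was highest in pair 4 and lowest in pair 1, with a change by IgG of -0.15 ± 0.10. Slc1a2, itself one of the astrocyte markers, was at 15.6 and 14.2 CPM. Summed astrocyte markers were at 159.0, 170.7, 166.2 and 166.7 CPM in control libraries 1 to 4 and at 138.3, 166.9, 146.0 and 166.6 CPM in IgG libraries, and those of the oligodendrocyte lineage, given above, were higher in libraries 2 and 4 of either group, as was Slc1a3. The part of such cells in these differences was not tested.

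A list of 44 other carriers and accessory proteins outside the symbol pattern, among them the SLCO, MFSD, sideroflexin and mitochondrial pyruvate carrier genes, was read from the same fit. Of 39 that could be tested, 0 had an adjusted p under 0.05 (0.393% of all genes higher and 0% lower) and 0 met the criterion (1.48% and 0.342%), whereas 4 were higher (10.3%) and 1 lower (2.56%) at an unadjusted p under 0.05 by edgeR, beside 6.35% and 3.85% of all genes. A total of 11 were higher (28.2%) and 4 lower (10.3%) in all 4 pairs, beside 10.4% and 8.47% of all genes, and the median log2 fold change was 0.04. The organic anion carrier Slco4a1 was at 15.8 and 20.4 CPM (0.39 ± 0.11) and Sfxn5, a sideroflexin, at 17.8 and 23.1 CPM (0.37 ± 0.11). Tspo, the outer mitochondrial membrane protein used as a marker of microglia in imaging, was at 129.7, 114.6, 125.7 and 94.2 CPM in control and 143.5, 145.2, 133.6 and 151.5 CPM in IgG libraries, without overlap (0.31 ± 0.12). Spns3 reached at most 1.13 CPM in a library. Slco2b1 was at 10.2 and 7.49 CPM (-0.46 ± 0.16). Basigin (Bsg), the chaperone of lactate carriers, was at 241.7 and 276.1 CPM and higher in all 4 pairs (0.19 ± 0.09), while the lactate carriers Slc16a1 and Slc16a3 had the negative values given above.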

How the data were processed

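Gene counts of 8 libraries of polyadenylated RNA (4 control, 4 IgG) were used as deposited, as raw counts per Ensembl gene. Per the labels and the study's methods, the authors filtered reads and aligned them with HISAT2 2.2.1 to GRCm38, and their processing notes also name SAMtools 1.12, Picard 2.26.3, featureCounts, R 4.1.2 and edgeR 3.36.0. The annotation, the strand setting and the handling of reads with several matches are not given in the sources used here, so reads of overlapping genes and of near-identical paralogues may be misassigned; 46 of the 183 genes overlap exons of a gene with at least 10% of their level. Gene biotypes, exon lengths and positions were read from the GENCODE mouse annotation and promoters from RefSeq, both on GRCm38.

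Counts were scaled with TMM and fitted with edgeR 4.0.16 (R 4.3.3; quasi-likelihood test, genes kept by filterByExpr, group plus date as a block), with Benjamini-Hochberg adjustment over 17537 genes. Control and IgG libraries of equal number share a date in the labels, and their deviations from the group means correlated at 0.41, 0.33, 0.26 and 0.32 over 15669 genes. Some libraries of unlike number also correlated positively. Control 1 with IgG 3 had 0.20, control 3 with IgG 1 0.14, control 2 with IgG 4 0.17 and control 4 with IgG 2 0.16. All other combinations were negative. Fold changes are given as log2 with standard errors, and CPM and RPKM are TMM-scaled. The scripts were tested on simulated counts. Alternatives were another scaling, other filters on low counts, the likelihood ratio test, DESeq2 1.42.0, limma-voom (limma 3.58.1), a correction for GC content and exon length, the fit without the block, each pair left out and other level thresholds. The fit without pairs 1 and 3 was added after seeing the data.

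The members and lists were chosen with earlier results of these data known. Genes named were those meeting a call rule, the 5 largest increases and decreases among genes with the same direction in all 4 pairs, the 10 highest RPKM values, 43 members of a list of 44 described carriers (Slc28a2 was under the threshold) and the 3 genes on either side of the level threshold. Other genes named were chosen after their values were seen. Values of 3 genes chosen in these ways are not reported here.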

Additional observations from a re-analysis of the deposited data

Results flagged for a closer look

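In 10 of 134 groups of 4 libraries, taken from the 67 genes named or singled out, 1 library stood apart from the other 3 by Dixon's test at the 95% level, which chance does in about 1 of 20 groups. In the IgG group, library 4 was high for the heavy chain Slc3a2 at 297.5 CPM, where the others had 241.1 to 246.9, and for the zinc carrier Slc39a7 at 164.6 CPM, where the others had 141.0 to 142.1. It was low for the fatty acid carrier Slc27a6 at 2.09 CPM beside 2.87 to 2.99. IgG library 2 was low for the mitochondrial carrier Slc25a39 at 108.2 CPM beside 132.0 to 136.4, and for the phosphate carrier Slc20a1 at 40.1 CPM beside 43.6 to 43.9.

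Among the control libraries, library 1 was high for the sugar phosphate exchanger Slc37a2 at 198.6 CPM beside 154.2 to 160.8 and for the lysosomal nucleoside carrier Slc29a3 at 100.8 CPM beside 90.9 to 91.3. It was low for the nucleoside carrier Slc29a1 at 48.1 CPM beside 52.5 to 53.1 and for the inositol carrier Slc2a13 at 1.70 CPM beside 2.71 to 2.75. Control library 4 was high for the cystine carrier Slc7a11 at 29.2 CPM, where the other controls had 14.6 to 16.7 CPM and the 4 IgG libraries 15.8 to 19.5 CPM.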

How the results depend on the processing

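The 0 adjusted calls among the 183 genes stayed at 0 under the fit without the replicate block, 3 scalings, limma-voom and the strict filter of 10 counts in every library. They became 3 with every gene of at least 1 count kept or with the likelihood ratio test (Slc31a2, Slc7a7 and Slc9a9), 1 with DESeq2 (Slc7a7), 1 with the GC content and exon length correction (Slc31a2) and 2 without pairs 1 and 3 (Slc31a2 and Slc2a13, which passed the level threshold through the control libraries alone, so that its call as lower is in part fixed by the selection). Leaving out a replicate gave 0 to 2, the 2 being Slc7a7 and Slc9a9 without replicate 4. The 2 genes meeting the criterion became 1 without the replicate block, with RLE scaling, library totals alone (Slc9a3r2, lower), DESeq2 or the GC content and exon length correction, 0 with upper-quartile scaling or the strict filter, 3 with the likelihood ratio test (Slc4a3, lower, added), 3 others without pairs 1 and 3 (Slc31a2, higher, and Slc2a13 and Slc4a10, lower), Slc9a9 and Slc4a3 with every gene of at least 1 count kept, and 0 to 5 on leaving out a replicate, 0 without replicate 1 or replicate 3 and 5 without replicate 4. Of the other carriers and accessory proteins, 1 met the criterion with library totals alone and 3 without pairs 1 and 3, and 1 (Tspo) had an adjusted p under 0.05 with the GC content and exon length correction and without pairs 1 and 3.

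Over all genes, the 69 adjusted calls became 0 without the replicate block, 37 with library totals alone, 376 with every gene of at least 1 count kept, 327 with the likelihood ratio test, 231 with DESeq2, 195 with the GC content and exon length correction, 190 without pairs 1 and 3, and 0 to 182 on leaving out a replicate (14, 0, 16 and 182 without replicates 1, 2, 3 and 4). The 320 genes meeting the criterion became 148 without the replicate block, 648 with every gene of at least 1 count kept, 528 with the likelihood ratio test and 215 to 762 on leaving out a replicate. The cause was not tested. Library totals alone moved the median of all genes to -0.11, and the 260 higher and 60 lower genes meeting the criterion became 172 and 140.

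Of 1005 log2 fold changes under an alternative, for the 67 genes named or singled out by rule, 53 changed sign, in 29 genes whose value was at most 0.29 in size. With library totals alone they were -0.046 for Slc39a7, -0.013 for Slc15a4, -0.00036 for Slc46a3, -0.0049 for Slc48a1, -0.016 for Slc1a4, -0.036 for Slc38a1, -0.064 for Slc2a6, -0.093 for Slc20a1, -0.013 for Slc44a1 and -0.0018 for Slc38a7. Upper-quartile scaling gave -0.0019 for Slc2a6 and -0.031 for Slc20a1, the strict filter -0.021 for Slc20a1, and the GC content and exon length correction -0.011 for Slc20a1. Without pairs 1 and 3 the values were 0.081 for Slc3a2, 0.11 for Slc25a3, 0.097 for Slc25a4, -0.11 for Slc29a3, -0.0051 for Slc39a14, -0.047 for Slc7a5, 0.0083 for Slc1a5, -0.12 for Slc1a4, -0.25 for Slc38a1, -0.13 for Slc38a2, -0.25 for Slc8a1, -0.027 for Slc20a1, -0.18 for Slc44a1, 0.23 for Slc35a2, 0.21 for Slc39a2 and -0.17 for Slc39a4. Slc7a1, Slc12a4 and Slc9a3r1, outside the 67 genes of this tally, also changed sign without these pairs, to -0.23, 0.019 and 0.045. Leaving out a replicate gave -0.067 to 0.062 for Slc6a6, -0.14 to 0.022 for Slc25a3, -0.048 to 0.095 for Slc39a7, -0.0069 to 0.16 for Slc46a3, -0.084 to 0.026 for Slc30a1, -0.21 to 0.12 for Slc7a11, -0.050 to 0.20 for Slc38a1, -0.022 to 0.095 for Slc2a6, -0.093 to 0.029 for Slc16a1, -0.16 to 0.038 for Slc37a4, -0.14 to 0.019 for Slc29a1, -0.029 to 0.30 for Slc8a1, -0.016 to 0.037 for Slc20a1, -0.0066 to 0.17 for Slc44a1, -0.12 to 0.087 for Slc35a2 and -0.0080 to 0.40 for Slc39a4.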
